A study of Mus musculus with 13 samples.

Results

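The Id and BMP signalling transcripts of C2C12 cells were examined as 9 genes chosen by name: Id1, Id2, Id3, Id4, Bmp4, Bmpr1a, Bmpr2, Smad6 and Smad7. All 9 were found among the 55642 genes of the table, and 8 of them were among the 16848 genes with enough counts for a test. Id4 was not. C2C12 is an established mouse myoblast line that can be grown as proliferating myoblasts or switched towards myotubes by a change of serum, so each group is 1 cell line and no animals were sampled. Cells were reverse transfected with nontargeting siRNAs (control KD) or with siRNAs to YBX3, an RNA-binding protein (YBX3 KD). They were then kept in medium with fetal bovine serum (0 day, proliferating) or changed 24 h later to medium with horse serum (1 day, differentiating), and all were harvested 48 h after transfection. RNAseq gave 4 control KD libraries at 0 day, 2 control KD libraries at 1 day, 4 YBX3 KD libraries at 0 day and 3 YBX3 KD libraries at 1 day. The titles call them biological replicates by number, and the descriptions give each a letter from A to D, which is used here. Where separate cultures are not stated p-values measure only the spread between these samples.

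BMPs are secreted ligands that bind a pair of receptor types at the cell surface, and the active receptors phosphorylate SMAD1, SMAD5 and SMAD9, which enter the nucleus with SMAD4. The Id genes are the classic targets of these SMADs. Id proteins hold a helix-loop-helix but no DNA-binding region, so they pair with E proteins and with myogenic factors such as MYOD and keep them off DNA. BMP is known to hold C2C12 cells back from forming myotubes and to turn them towards bone-like cells. SMAD6 and SMAD7 are also induced by the pathway and inhibit it in turn.

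Library totals ranged from 33451547 to 71811371 counts, with scaling factors (TMM) from 0.969 to 1.02. Ybx3 itself lay between 265 and 347 CPM (counts scaled to library size) in the 6 control KD libraries and between 28.7 and 71.5 CPM in the 7 YBX3 KD libraries, without overlap. It fell by 2.81 on the log2 scale (SE 0.17, edgeR's quasi-likelihood test, adjusted p = 4.31e-06). Of 6 myoblast markers, Cdh15 (99.6 to 163 CPM), Myf5 (31.3 to 73.5 CPM) and Des (15.5 to 54.8 CPM) were expressed in every library, while Myod1 reached 3.32 CPM and Pax7 0.179 CPM at most. Myog, which marks the onset of differentiation, lay between 0.0523 and 3.46 CPM, with 0.0523 and 0.427 CPM in control KD at 1 day against 0.123 to 0.888 CPM in control KD at 0 day. Of 6 osteoblast markers, Runx2 (83.3 to 135 CPM) was well expressed, and Alpl, Sp7, Bglap, Ibsp and Dlx5 did not exceed 1.20 CPM. Across both siRNAs, 0 of 16848 genes passed an adjusted p under 0.05 between the days in edgeR's test (557 at an unadjusted p under 0.05, 2 passing in DESeq2 and 33 in limma-voom). Replicate D stood apart in many genes, as described for each gene where it matters.

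The YBX3 siRNAs are shown because a 7-base seed (bases 2 to 8 of the antisense strand, in capitals) can match the 3' untranslated regions of other genes. That of Ybx3 itself held 0 matches to any of the seeds. The study lists 4 siRNAs for mouse YBX3, and the sources used here do not say which were used for the RNAseq. As listed, the antisense strand of siRNA 07 is not the complement of the sense strand given with it, unlike those of the other 3.
YBX3 siRNA 05: uAUAGUUGuagggacgucg
YBX3 siRNA 06: aUAGUAGCcgcgucuguac
YBX3 siRNA 07: uCCAUAUCcauuucugacg
YBX3 siRNA 08: aUACUUGCguggguuguuu
A match to the seed of at least 1 of the 4 was present in the 3' untranslated region of 2643 of 12928 tested genes (20.4%). Of the 9 genes, only Bmpr2 had one, with 3 matches to siRNA 06 in a region of 8529 bases. They are shown with the match in capitals, since Bmpr2 is the BMP type II receptor.
Bmpr2, bases 712 to 718: accttccaaatGCTACTAttgtttccttc
Bmpr2, bases 2869 to 2875: taaaaaacatgGCTACTAtacaagtttgt
Bmpr2, bases 7301 to 7307: gctgcttcctaGCTACTAcaatacaccaa
Its transcript did not differ in YBX3 KD by more than its spread (log2 fold change 0.02, 95% interval -0.17 to 0.21). These matches are a description of letters in the annotation, and whether any of them was used by an siRNA was not tested.

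The levels differed widely among the 9 genes. Per kilobase of exon, over all 13 libraries, Id3 was the highest at 33.5 ± 11.6 CPM per kilobase (SD, n = 13), followed by Bmpr1a at 14.7 ± 0.805, Id1 at 14.1 ± 4.51, Id2 at 10.99 ± 3.99, Smad7 at 7.91 ± 2.81, Bmpr2 at 6.79 ± 0.692, Bmp4 at 2.78 ± 1.02 and Smad6 at 2.39 ± 0.396. Of neighbours in this order, Id3 and Bmpr1a, and Bmpr2 and Bmp4, were further apart than the larger SD of the pair. Bmpr1a and Id1, Id1 and Id2, Id2 and Smad7, Smad7 and Bmpr2, and Bmp4 and Smad6 were not. With the length of the longest transcript, Id1 came before Bmpr1a (18.9 against 16.7 CPM per kilobase) and Bmpr2 before Smad7 (9.50 against 8.34). Id4 had 12 counts over all 13 libraries and 0 in all 4 YBX3 KD libraries at 0 day. It exceeded the limit of 3 counts per library only in replicate B of YBX3 KD at 1 day, with 5. In the levels of these genes, fewer cells of a kind and less RNA per cell cannot be told apart.

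**Figure D1:**
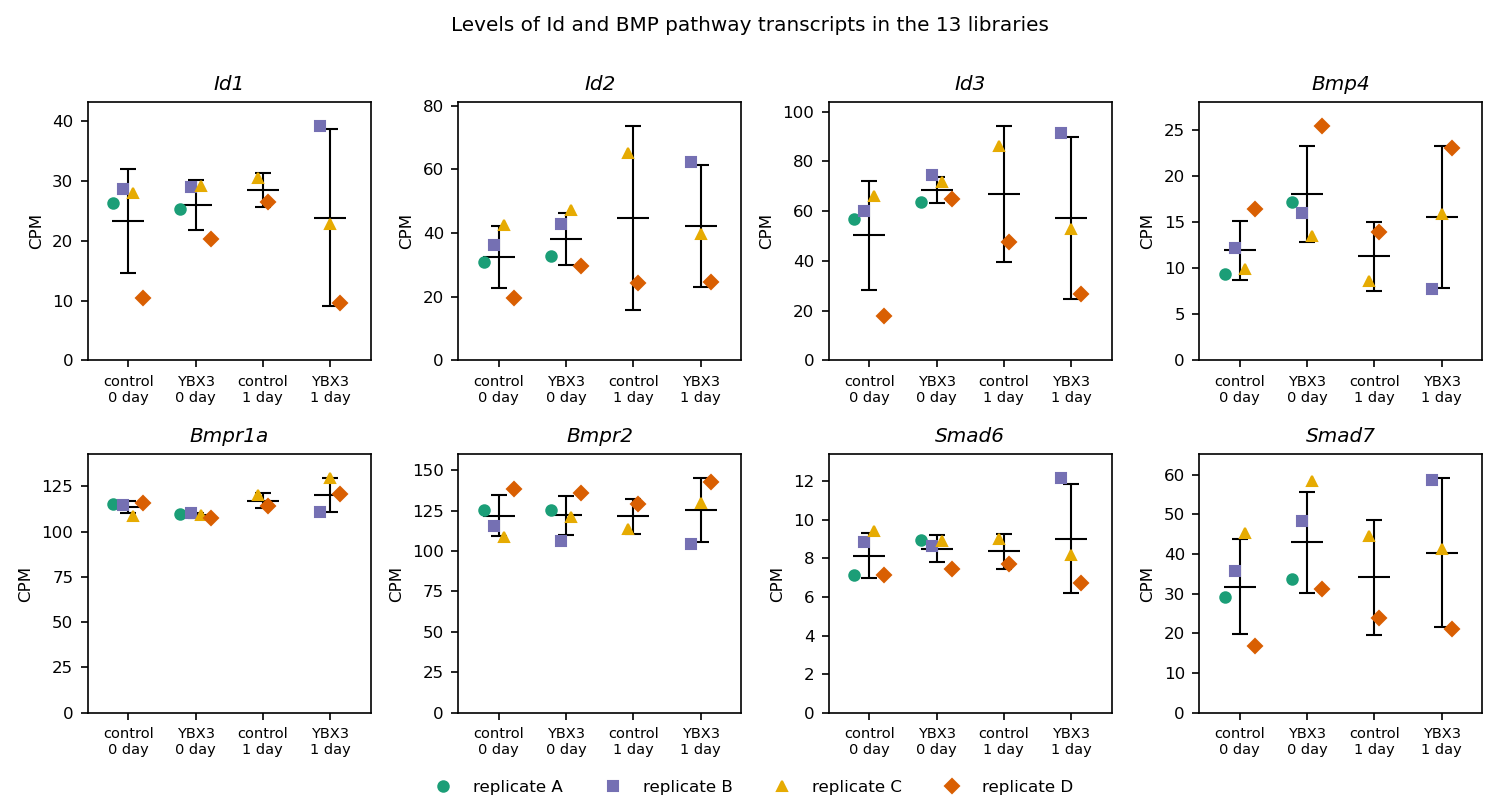
CPM (y axis, from 0) of the 8 tested genes in each library, by group (x axis), with the replicate letter as colour and shape and the mean ± SD of the group in black. Bmpr1a and Bmpr2 vary little, while replicate D (orange) is the lowest point of all 4 groups for Id1, Id2, Smad6 and Smad7 and the highest for Bmp4 and Bmpr2.

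Between YBX3 KD and control KD over both days, 0 of the 8 tested genes passed an adjusted p under 0.05 in edgeR's test, where 2.59% of all tested genes passed (1.5% higher and 1.09% lower). At the stricter thresholds that the study used (fold 1.3, adjusted p 0.001) it was 0 of 8 against 0.113% of all genes. Bmp4 was the 1 gene of the 8 with an unadjusted p under 0.05, which 16.6% of all genes had. DESeq2 passed 0 of the 8 (7% of all genes) and limma-voom passed 1, Bmp4 (18.3%). With the replicate letter as a block, by which libraries can be paired, Bmp4 passed (1 of 8, against 10.6% of all genes). At 0 day 0 of 8 passed in edgeR's test against 0.481% of all genes, with 0 of 8 at an unadjusted p under 0.05 against 12%. At 1 day it was 0 of 8 against 0.0712%, with 0 of 8 at an unadjusted p under 0.05 against 7.88%. For the difference of the siRNA effect between the days 0 of 8 and 0% of all genes passed, with 0 of 8 at an unadjusted p under 0.05 against 2.83% (DESeq2 passed 2 genes and limma-voom 1 of the whole table). Between 1 day and 0 day 0 of 8 and 0% of all genes passed, with 0 of 8 at an unadjusted p under 0.05 against 3.31%. In these 4 comparisons DESeq2 and limma-voom also passed 0 of the 8. The median log2 fold change of the 8 genes over both days was 0.09, against 0.0022 for all tested genes.

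**Figure D2:**
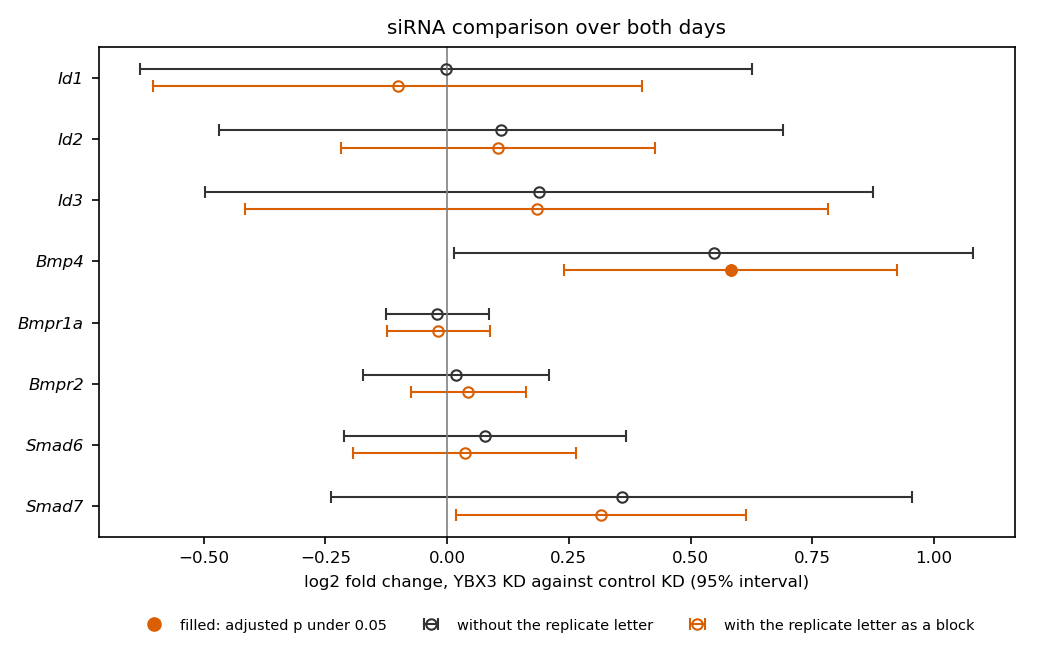
Log2 fold change of YBX3 KD against control KD over both days (x axis) with its 95% interval for the 8 tested genes, without (grey) and with (orange) the replicate letter as a block. Only the blocked value of Bmp4, 0.58 with an interval from 0.24 to 0.92, is filled, which marks an adjusted p under 0.05.

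Id1, Id2 and Id3, the inhibitors of helix-loop-helix factors, were expressed in every library, and their levels overlapped between YBX3 KD and control KD. Id1 (chr2:152566218-152579544, plus strand, GRCm39) was measured at 26.3, 28.7, 27.9 and 10.4 CPM in control KD at 0 day (replicates A to D) and at 25.3, 28.9, 29.2 and 20.3 CPM in YBX3 KD at 0 day. At 1 day it was at 30.5 and 26.5 CPM in control KD (C and D) and at 39.2, 22.8 and 9.60 CPM in YBX3 KD (B to D). The groups overlapped, and the lowest values of both siRNAs came from replicate D. The log2 fold change over both days was -0.0026 (95% interval -0.63 to 0.63), so that an average change of up to 1.54-fold lay within the interval.

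Id2 (chr12:25143798-25147282, minus strand) was at 30.9, 36.4, 42.6 and 19.8 CPM in control KD and at 32.7, 42.7, 47.2 and 29.7 CPM in YBX3 KD at 0 day. At 1 day its values were 65.2 and 24.2 CPM in control KD and 62.4, 39.8 and 24.5 CPM in YBX3 KD. The spread within a group at 1 day thus exceeded the difference between the siRNAs, which was 0.11 on the log2 scale (SE 0.27, adjusted p = 0.872 in edgeR's test).

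Id3 (chr4:135870808-135873066, plus strand) had the widest range, 5.09-fold between the lowest and the highest library. In control KD at 0 day it was at 56.9, 60.0, 66.2 and 17.996 CPM, and in YBX3 KD at 0 day at 63.6, 74.5, 71.5 and 64.9 CPM. In control KD at 1 day it was at 86.3 and 47.4 CPM, and in YBX3 KD at 1 day at 91.6, 52.8 and 26.8 CPM. The 4 YBX3 KD libraries at 0 day lay close together, and 1 of the 7 YBX3 KD libraries exceeded all 6 of control KD. The log2 fold change over both days was 0.19 (SE 0.32, adjusted p = 0.802 in edgeR's test). It was 0.45 (SE 0.40, adjusted p = 0.761) at 0 day and -0.23 (SE 0.52, adjusted p = 0.916) at 1 day, and the difference between the days was -0.67 (SE 0.65, adjusted p = 1.00). Id1 gave 0.15 (SE 0.38) at 0 day and -0.25 (SE 0.49) at 1 day, with a difference of -0.40 (SE 0.61, adjusted p = 1.00).

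Bmp4 was higher in YBX3 KD than in control KD in each of the 6 pairs of libraries with the same letter and day. Bmp4 (chr14:46620250-46636745, minus strand) encodes a secreted BMP ligand. It was at 9.35, 12.2, 9.91 and 16.4 CPM in control KD at 0 day (A to D) and at 17.2, 16.0, 13.5 and 25.5 CPM in YBX3 KD at 0 day. At 1 day it was at 8.67 and 13.95 CPM in control KD (C and D) and at 7.73, 15.9 and 23.1 CPM in YBX3 KD (B to D). The groups overlapped, with 3 of 7 YBX3 KD libraries above all 6 of control KD and 1 below all of them, the 1 day library of replicate B, which has no control KD partner.

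Within the letter and day, the fold of YBX3 KD over control KD for Bmp4 ranged from 1.31 to 1.84, and 9.37% of all tested genes were higher in all 6 pairs. The mean log2 fold change was 0.55 (SE 0.25, 95% interval 0.01 to 1.08, adjusted p = 0.285 in edgeR's test). With the replicate letter as a block it was 0.58 (95% interval 0.24 to 0.92, adjusted p = 0.0401), and limma-voom with sample weights gave 0.61 (adjusted p = 0.0232). Over the 23 alternatives the value lay between 0.42 and 0.66 and the adjusted p between 0.00488 and 0.482. At 0 day the log2 fold change was 0.60 (SE 0.32, adjusted p = 0.514) and at 1 day 0.46 (SE 0.42, adjusted p = 0.805). The gene overlaps 3 antisense transcripts in the annotation, of which Gm15222 had 622 counts over the 13 libraries, against 8659 for Bmp4.

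The receptors Bmpr1a and Bmpr2 were the steadiest of the 8 genes. Bmpr1a (chr14:34132687-34225379, minus strand), a BMP type I receptor, lay between 109 and 116 CPM in control KD at 0 day and between 107 and 110 CPM in YBX3 KD at 0 day. It was at 120 and 114 CPM in control KD at 1 day and at 111, 130 and 121 CPM in YBX3 KD at 1 day, so all 13 libraries lay within 1.21-fold. Its log2 fold change over both days was -0.02 (95% interval -0.13 to 0.09). Bmpr2 (chr1:59802544-59918173, plus strand), the type II receptor, lay between 108 and 138 CPM in control KD at 0 day and between 106 and 136 CPM in YBX3 KD at 0 day. At 1 day it was at 114 and 129 CPM in control KD and at 104, 130 and 143 CPM in YBX3 KD. For both receptors the interval excluded a change of the fold of 1.3 used by the study, with bounds from 0.888 to 1.16 times for Bmpr2 and from 0.916 to 1.06 times for Bmpr1a. Bmpr2 overlaps the antisense transcript B430105G09Rik, which had 746 counts against 73587. On its own strand it overlaps Gm38125, with 3 counts, and a protein-coding gene without a symbol, for which no counts were given.

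Smad6 and Smad7 encode the inhibitory SMADs. Smad6 (chr9:63860341-63929793, minus strand) was low, between 7.16 and 9.41 CPM in control KD at 0 day and between 7.47 and 8.96 CPM in YBX3 KD at 0 day. Its 1 day values were 9.02 and 7.73 CPM in control KD and 12.2, 8.16 and 6.73 CPM in YBX3 KD. Both the highest and the lowest library were thus of YBX3 KD at 1 day, and the log2 fold change over both days was 0.08 (95% interval -0.21 to 0.37).

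Smad7 (chr18:75500374-75529006, plus strand) was at 29.1, 35.8, 45.3 and 16.8 CPM in control KD at 0 day (A to D) and at 33.8, 48.4, 58.3 and 31.2 CPM in YBX3 KD at 0 day. Its 1 day values were 44.4 and 23.9 CPM in control KD and 58.7, 41.3 and 21.1 CPM in YBX3 KD. Each YBX3 KD library at 0 day exceeded the control KD library of its letter, while the groups as a whole overlapped. The log2 fold change over both days was 0.36 (SE 0.28, 95% interval -0.24 to 0.96, adjusted p = 0.557 in edgeR's test). At 0 day it was 0.43 (SE 0.36, adjusted p = 0.733), and DESeq2 on the same contrast, blocked by the replicate letter, gave 0.47 with an adjusted p = 0.0497 (7.91% of all genes passed there). At 1 day it was 0.24 (SE 0.47, adjusted p = 0.905).

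Within the replicate letters, Id3 and Smad7 gave the same pattern of signs. Id3 was 1.12, 1.24, 1.081 and 3.60 times as high in YBX3 KD as in control KD at 0 day (A to D), and 0.612 and 0.566 times as high at 1 day (C and D). Smad7 was 1.16, 1.35, 1.29 and 1.85 times as high at 0 day, and 0.930 and 0.881 times at 1 day. Higher in all 4 pairs at 0 day and lower in both pairs at 1 day held for 2 of the 8 genes and for 2.15% of all tested genes. The pattern was taken from the values of these 2 genes, so the counts are a description with no test. Id1 was 0.964, 1.01, 1.04 and 1.95 times as high at 0 day and 0.747 and 0.363 times at 1 day, and Id2 was higher in 4 of 4 pairs at 0 day and in 1 of 2 at 1 day. For Id1, Id3 and Smad7 the pair of replicate D gave the largest fold at 0 day and the smallest at 1 day. With the replicate letter as a block, the difference of the siRNA effect between the days was -0.92 for Id1 and -1.13 for Id3 on the log2 scale (SE 0.40 and 0.46, adjusted p = 0.416 for each in edgeR's test). In the fit without the block it was -0.40 for Id1 and -0.67 for Id3. That unblocked fit gave 0.031 for Id1 and -0.44 for Id3 without the 4 libraries of replicate D. Replicate C is then the only control KD library at 1 day.

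**Figure D3:**
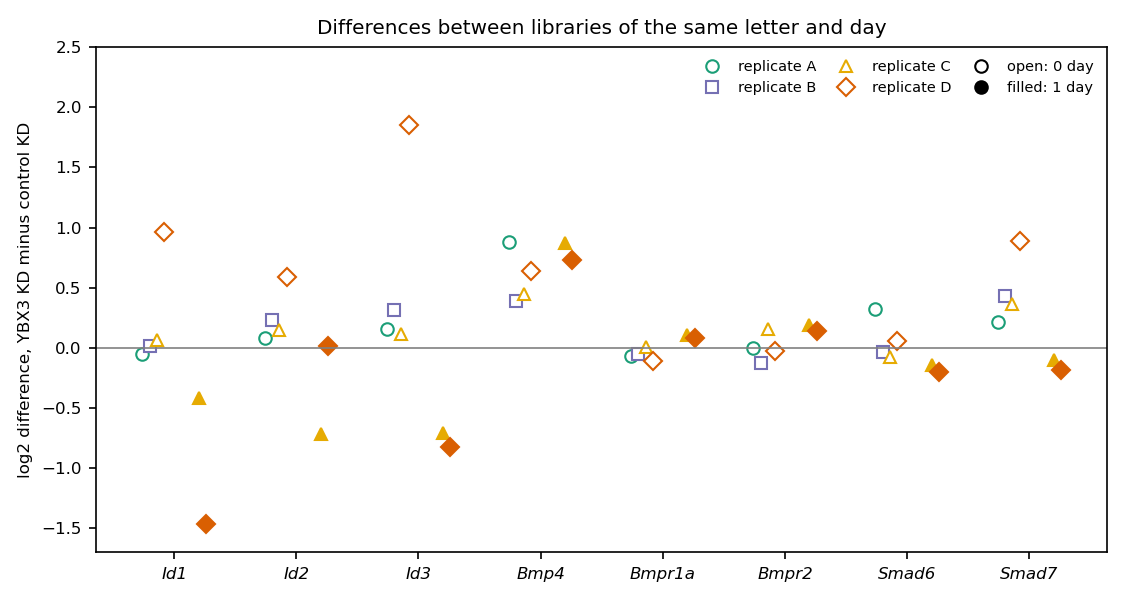
Log2 difference between YBX3 KD and control KD (y axis) for each of the 6 pairs of libraries of the same letter and day, by gene (x axis), open at 0 day and filled at 1 day. All 6 points of Bmp4 lie above 0, those of Id3 and Smad7 lie above 0 at 0 day and below 0 at 1 day, and those of Bmpr1a and Bmpr2 stay near 0.

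The levels also differed between the replicate letters. In a test of the letter terms, which was added after the levels were seen, 4 of the 8 genes passed (Id2 with adjusted p = 0.0120, Bmp4 with 0.0274, Bmpr2 with 0.0263 and Smad7 with 0.00771 in edgeR's test), where 32.4% of all tested genes did. The adjusted p was 0.107 for Id1, 0.182 for Id3, 0.113 for Smad6 and 0.941 for Bmpr1a. The log2 difference of replicate D from replicate A was -0.71 for Id1, -0.49 for Id2, -0.66 for Id3, -0.19 for Smad6, -0.43 for Smad7, 0.75 for Bmp4 and 0.12 for Bmpr2. Replicate D was the lowest library of all 4 groups for Id1, Id2, Smad6 and Smad7, as it was for 21.3% of all tested genes, and of 3 groups for Id3. For Smad6 in control KD at 0 day it was level with replicate A at the digits given, both at 7.16 CPM. Replicate D was the highest of all 4 groups for Bmp4 and Bmpr2, as it was for 21.9% of all tested genes. What distinguishes replicate D is not given in the labels.

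**Figure D4:**
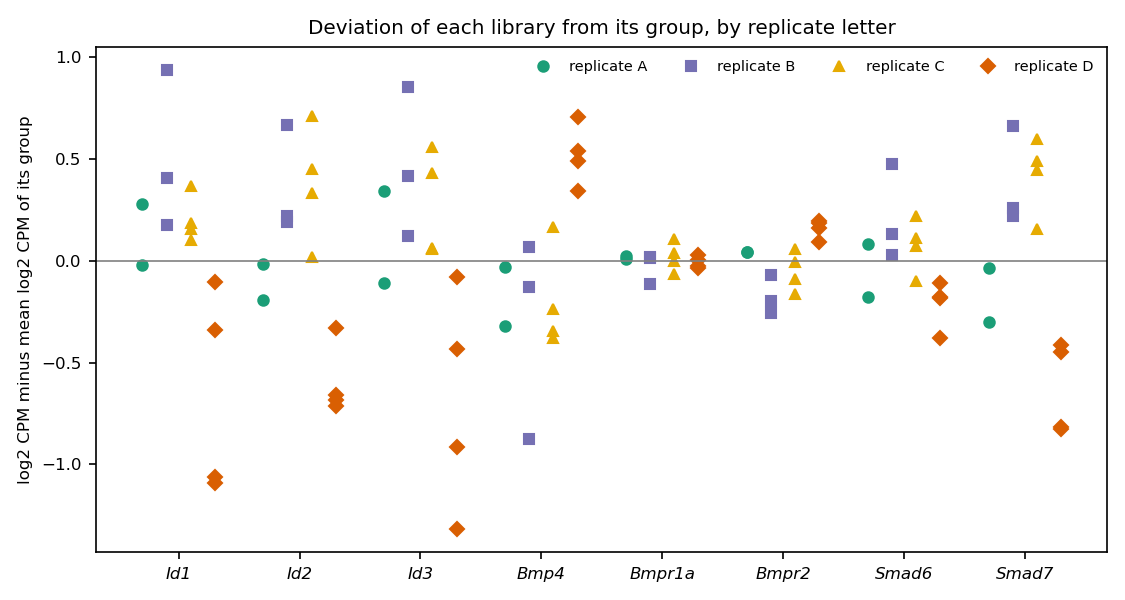
Log2 CPM of each library minus the mean log2 CPM of its group (y axis), by gene (x axis) and replicate letter (colour and shape). For Id1, Id2, Id3, Smad6 and Smad7 the 4 libraries of replicate D lie below 0, and for Bmp4 and Bmpr2 they lie above 0.

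Among the 8 genes, Id1, Id2, Id3, Smad6 and Smad7 were high and low in much the same libraries. Over the 9 libraries of replicates A to C, Pearson's r of log2 CPM was 0.87 for Id1 and Id3, 0.87 for Id2 and Id3, 0.78 for Id2 and Smad7 and 0.81 for Id1 and Smad6. The lowest r among these genes was 0.62, for Id1 and Smad7. Bmpr2 ran against them, with r from -0.79 (Id1) to -0.58 (Smad7) over these libraries. Bmp4 also ran against the Id genes, with r of -0.67 with Id1, -0.53 with Id2 and -0.51 with Id3. For Bmp4 it was -0.39 with Smad6 and -0.16 with Smad7. Bmpr1a had no r beyond 0.50 in size with any of the other 7. These libraries share letters, siRNAs and days, so the values are a description with no test.

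The genes of the whole table with the pattern most like each of the 8 were found by r of log2 CPM over the 13 libraries, the first 3 being named. They were Acad9, Heatr3 and Rwdd4a for Id1 (r of 0.98 each, and 0.89 to 0.90 without the 2 libraries farthest from the median), Lin7c, Ptp4a1 and Clint1 for Id2 (0.97, 0.95 and 0.94) and Ciapin1, Engase and Meaf6 for Id3 (0.97, 0.97 and 0.96, falling to 0.80, 0.79 and 0.72 without the 2 libraries). Cd200, Kremen1 and Pcdhb17 were nearest to Bmp4 (0.98, 0.97 and 0.96). Vps13b, Trps1 and Zbtb37 were nearest to Bmpr2 (0.97, 0.96 and 0.96), and Adam10, Hivep1 and S1pr1 to Bmpr1a (0.89, 0.89 and 0.83). Mrps26, Tmem41a and Fdx1 were nearest to Smad6 (0.89, 0.88 and 0.88), and Ugcg, Bola3 and Best3 to Smad7 (0.96, 0.96 and 0.95). Without the 2 libraries farthest from the median, r fell to 0.83, 0.81 and 0.67 for Bmpr1a. For Smad6 it fell to 0.81, 0.79 and 0.73, and for Id2, Bmp4, Bmpr2 and Smad7 it stayed at 0.91 or above. Being the largest of many correlations, the values over the 13 libraries are high by choice and carry no test.

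As the Id genes and Smad6 are known targets of SMADs, letters that SMAD proteins are known to bind were searched on both strands in the promoter window of each gene, from 250 bases before its start to 50 after (RefSeq, GRCm38.p6). Windows were matched for 7 of the 9 genes, all but Id1 and Smad7. The windows below show matches in capitals on the strand of the gene, for Id2 and Id3 as the Id genes tested and for Smad6 as the holder of the rarest motif, while the GGCGCC matches of Id4, Bmpr1a and Bmpr2 are given only by name.
Id2, chr12:25096306-25096335, minus strand, GGCGCC at -231: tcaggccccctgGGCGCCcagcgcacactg
Id3, chr4:136143643-136143672, CAGAC at -167: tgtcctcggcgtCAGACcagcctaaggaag
Id3, chr4:136143742-136143771, CAGAC on the other strand at -68: ggacccttggcgGTCTGttttgaataaggg
Smad6, chr9:64022045-64022074, minus strand, GTCTAGAC at -4: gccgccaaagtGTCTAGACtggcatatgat
GTCTAGAC, the palindrome that SMAD4 is known to bind, was found in Smad6 alone of the 7 and in 0.213% of 32851 promoter windows. GGCGCC, a GC-rich element, was found in Id2, Id4, Bmpr1a and Bmpr2 and in 11.9% of all windows, and CAGAC in Id3 alone of the 7 and in 49.6% of all windows. CANNTG, the E-box that Id proteins keep MYOD and E proteins from, was present in Id2, Bmp4 (3 matches) and Smad6 and in 72.3% of all windows. Each motif was counted on its own, whether or not it overlapped another. A match is only a match of letters, and no binding was measured.

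Between 1 day and 0 day the Id genes were not separated. Over both siRNAs the log2 difference was 0.06 for Id1 (SE 0.30), 0.29 for Id2 (SE 0.27) and 0.04 for Id3 (SE 0.32), each with an adjusted p = 1.00 in edgeR's test. Within the letter, Id1 and Id3 were higher at 1 day in both control KD pairs (Id1 1.09 and 2.55 times, Id3 1.304 and 2.63 times as high) and in replicate B of YBX3 KD (1.35 and 1.23 times). They were lower at 1 day in replicates C and D of YBX3 KD (Id1 0.781 and 0.475 times, Id3 0.738 and 0.414 times as high). The 1 day comparison rests on 2 control KD libraries.

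Around the 9 genes, 69 other genes of the BMP pathway and of the helix-loop-helix factors that Id proteins bind were listed, of which 51 were tested. In YBX3 KD, 2 of the 51 passed, Smad5 and Rgma, and both fell (1.09% of all tested genes passed and were lower). The median log2 fold change of the 51 was 0.08. With the replicate letter as a block 7 passed, 5 of them higher (Myod1, Fstl3, Acvr2b, Fst and Eng), against 10.6% of all genes, 5.97% higher and 4.63% lower. Between the days 0 of 51 passed in edgeR's test, as did 0% of all tested genes. At an unadjusted p under 0.05 it was 0 of 51 against 3.31% of all tested genes.

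Smad5 encodes 1 of the SMADs that BMP receptors phosphorylate. It lay between 77.3 and 88.2 CPM (median 84.0) in the 6 control KD libraries and between 61.7 and 71.0 CPM (median 66.2) in the 7 YBX3 KD libraries. The groups did not overlap, which held for 1.08% of all tested genes in this direction. It fell by 0.34 on the log2 scale (SE 0.05, adjusted p = 0.00643 in edgeR's test) to 0.788 times the control level, and it passed under each of 23 alternatives. It was lower in each of the 6 pairs (7.97% of all genes), at 0.760 to 0.813 times. Smad4, the common SMAD, was also below its control partner in each of the 6 pairs, with a log2 fold change of -0.15 (SE 0.05, adjusted p = 0.168), and Smad1 and Smad9 gave 0.026 and 0.13.

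Rgma encodes a BMP co-receptor. It lay between 13.8 and 20.8 CPM (median 15.1) in control KD and between 6.47 and 14.7 CPM (median 9.30) in YBX3 KD, with an overlap. It fell by 0.71 (SE 0.17, adjusted p = 0.0468 in edgeR's test). The log2 fold change lay between -0.79 and -0.60 under the 23 alternatives, of which 9 passed. Among these were edgeR blocked by letter (adjusted p = 0.0250), DESeq2 (0.00199) and limma-voom (0.00309), while the call was lost without a filter (0.0539), with the title number as a block (0.0606) and in the legacy fit of edgeR (0.0517). Leaving out 1 library at a time, it passed without replicate D of control KD at 0 day (0.0413) or replicate D of YBX3 KD at 1 day (0.0199) and was lost without any of the other 11 (0.0501 to 0.103).

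Smad5 and Rgma were also among the 11 of the 51 genes (21.6%, against 20.4% of all genes) with a match to the seed of a YBX3 siRNA in the 3' untranslated region. The sites are shown with the match in capitals because both genes fell.
Smad5, siRNA 05, bases 17 to 23: aagtattctttCAACTATatttttagtgg
Smad5, siRNA 08, bases 3053 to 3059: aaatgaaccgtGCAAGTAacacttggggt
Rgma, siRNA 08, bases 1829 to 1835: aacggctaaatGCAAGTAaagttggtttt
Each of the 3 matches is followed by an A. So is a match in each of Acvr2a, Acvr2b, Skil and Dlx3, while those of Smad1, Eng and Tob1 are not. The median log2 fold change was 0.03 for the 11 genes with a match and 0.11 for the 40 without. Of the 11, Acvr2b, Eng and Tob1 were higher in YBX3 KD in all 6 pairs, as were 9.37% of all tested genes. Smad5, Rgma and Dlx3 were lower in all 6 pairs, as were 7.97%. Whether the siRNAs acted on these sites was not tested.

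Of the 5 genes that passed in edgeR's test with the replicate letter as a block and not without it, Myod1, the myogenic factor that Id proteins bind, was low. Over all alternatives for the siRNA comparison, the blocked ones included, Myod1 passed in 8 of 23, Acvr2b in 7, Eng in 6 and Fstl3 in 3 of 23, and Fst in 5 of 22. It lay between 0.601 and 1.80 CPM (median 1.00) in control KD and between 1.15 and 3.32 CPM (median 2.44) in YBX3 KD, and each of the 6 pairs had more of it after YBX3 KD. Its log2 fold change was 1.09 (SE 0.28, adjusted p = 0.0666), and 1.08 with the block (adjusted p = 0.0109). Fst, a secreted antagonist of activins and BMPs, lay between 0.157 and 1.20 CPM in control KD and between 0.768 and 3.42 CPM after YBX3 KD. Its log2 fold change was 1.40 (SE 0.40, adjusted p = 0.0871) and 1.41 with the block (adjusted p = 0.0234). Fstl3, a related antagonist, had 0.36 (adjusted p = 0.296) and 0.32 with the block (adjusted p = 0.0160). Acvr2b, a type II receptor, had 0.59 (adjusted p = 0.0553, and 0.0232 with the block), and Eng, a co-receptor, 0.44 (adjusted p = 0.0692, and 0.0412 with the block).

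**Figure D5:**
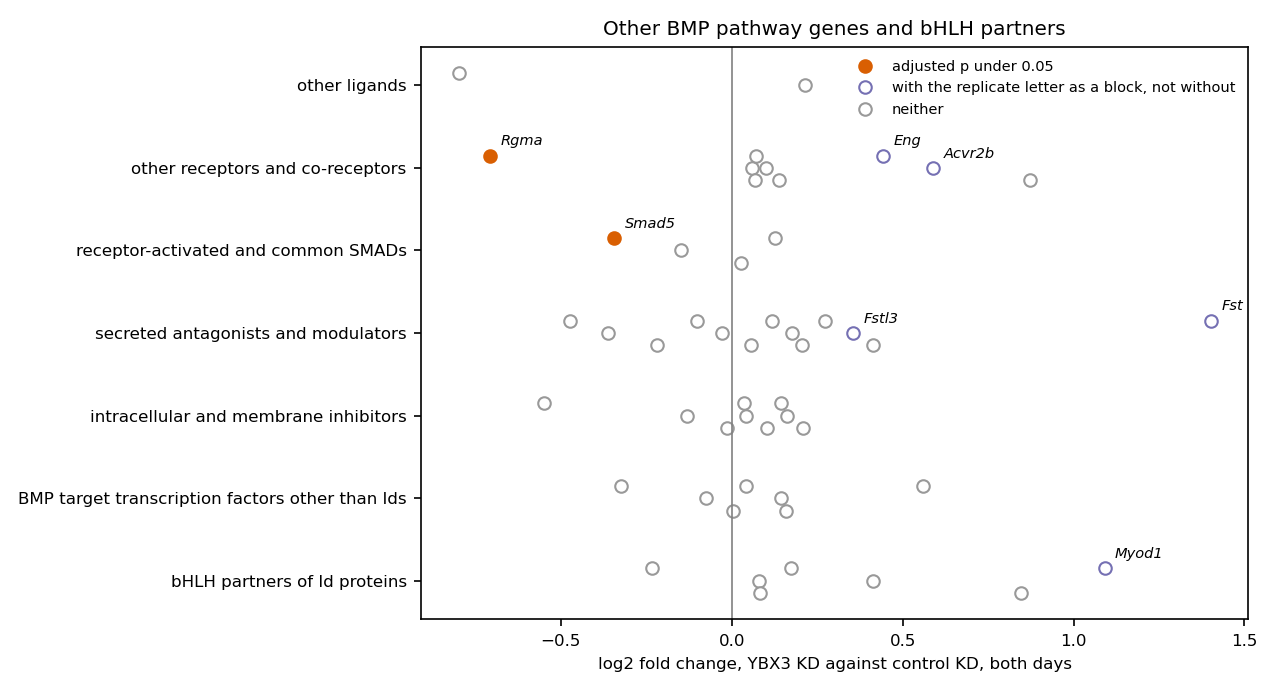
Log2 fold change of YBX3 KD against control KD over both days without the block (x axis) for the 51 tested genes around the 9, by list (y axis). Smad5 (-0.34) and Rgma (-0.71), in filled orange, are the 2 that passed, and the 5 in purple passed in edgeR's test with the replicate letter as a block and not without it.

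For the lists without a gene that passed in edgeR's test without the block, the gene with the most CPM is given. Of 13 other BMP ligands, 2 were tested, Bmp5 and Bmp6. Bmp6, with the higher CPM of the 2, lay between 0.314 and 1.56 CPM. Its log2 fold change was 0.21 (SE 0.29). Fstl1 led the 13 tested antagonists and modulators with 417 to 665 CPM and a log2 fold change of 0.18 (SE 0.13). Pmepa1, a membrane inhibitor of SMAD signalling, lay between 317 and 535 CPM with 0.16 (SE 0.12). Runx2, with the most CPM of the 7 tested BMP target factors, had 0.16 (SE 0.10), and Tcf12, with the most CPM of the 7 tested helix-loop-helix partners, lay between 162 and 224 CPM with 0.08 (SE 0.08).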

How the data were processed

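RNAseq was measured in 13 libraries (Illumina stranded mRNA kit). The authors quantified transcripts with Salmon (GRCm39, Gencode M30). Their deposited values are estimated counts per gene, as whole numbers and without normalization. The step that summed transcripts by gene and whether strand was used are not given in the sources used here. Groups and replicate letters came from the labels.

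Counts were tested in R 4.3.3 with edgeR 4.0.16 (filterByExpr on the 4 groups, TMM, quasi-likelihood test without the legacy fit, Benjamini-Hochberg adjustment over 16848 genes). The siRNA and the day were additive terms over all 13 libraries, and contrasts within a day or siRNA came from 1 coefficient per group. A gene passed at an adjusted p under 0.05. limma 3.58.1 and DESeq2 1.42.0 were alternatives. CPM were scaled by TMM, and log2 CPM used a prior count of 2. Intervals are 95% intervals of the fit. Figures were drawn in Python 3.11.15 with matplotlib 3.10.9. The tests were tested on simulated data. Positions and 3' untranslated regions (the canonical transcript of each gene) are those of GENCODE vM39.

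Letter and title number disagree at 1 day. After removal of group means, libraries sharing a letter correlated above 0.1 in 16 of 16 pairs across groups (0.117 to 0.730), against 11 of 46 with different letters and 8 of 16 with the same title number, so the letter was the block. No 2 libraries of a group were duplicates.

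The 9 genes and the lists of other genes were chosen with earlier results of these data known. Beside these, the rule for named genes took from each list the genes that passed, at most 4, or else the one with the most CPM, and the 3 genes most like each of the 8. Genes that passed in edgeR's test with the block and not without it were named after their values were seen. The legacy fit, the test among letters and the values within letters were added after seeing the data.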

Additional observations from a re-analysis of the deposited data

Results flagged for a closer look

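In 16 groups of 4 libraries tested for an isolated value (Dixon's test), 2 were flagged, and chance flags about 1 in 20 such groups. Id1 was at 10.4 CPM in replicate D of control KD at 0 day, far below the 26.3 to 28.7 CPM of the other 3 libraries. The same library was the lowest for Id2, Id3 and Smad7 as well. Bmpr1a was at 109 CPM in replicate C of control KD at 0 day, below the 114 to 116 CPM of the other 3.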

How the results depend on the processing

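Of 56 values (8 genes in 7 comparisons), 0 passed, and of 1320 values under an alternative 4 did. The count of genes passing over both days was 1 (Bmp4) with the replicate letter as a block, 1 with limma-voom and 1 with DESeq2 under the same block (0.57, adjusted p = 0.00488). At 0 day it was 1 (Smad7) with DESeq2 under that block. The replicate block changed no other call of the 9 genes, and leaving out 1 library at a time passed 0 of them in any of the 7 comparisons.

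The sign turned in 137 of the 1320 values, 0 of which passed. Among the values given here, leaving out 1 library at a time gave, over both days, -0.17 to 0.14 for Id1, -0.024 to 0.37 for Id2, -0.017 to 0.057 for Bmpr2 and -0.021 to 0.13 for Smad6. It gave -0.10 to 0.25 for Id1 at 0 day, and at 1 day -0.81 to 0.13 for Id1, -0.74 to 0.27 for Id3 and -0.14 to 0.76 for Smad7. For 1 day against 0 day it gave -0.17 to 0.27 for Id1, -0.020 to 0.45 for Id2 and -0.21 to 0.24 for Id3. Id1 over both days turned to 0.0050 with at least 10 counts in every library, 0.070 with the title number as a replicate block and 0.016 without all 4 libraries of letter D. Without letter D, Id2 turned to -0.0070 over both days, Id1 to 0.037 at 1 day and Id1 to 0.031 for the difference between the days. limma-voom turned Id2 to -0.046 over both days and Id1 to -0.017 at 0 day. With the title number as a replicate block, 1 day against 0 day turned to -0.25 for Id1 and -0.27 for Id3. The cause was not tested.

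Over all genes, 436 passed over both days, against 212 without a filter, 2278 without letter D, 1785 with the replicate letter as a block, 1179 in DESeq2, 2951 in DESeq2 with the block and 3088 in limma-voom. Leaving out 1 library at a time gave 193 to 926. At 0 day 81 passed, against 481 with the block, 506 in DESeq2, 1332 in DESeq2 with the block, 1782 in limma-voom, 43 without a filter, 1014 without letter D and 23 to 113 with 1 library left out. At 1 day 12 passed, against 31 with the block, 152 in DESeq2, 2347 in DESeq2 with the block, 0 with the title number as a block, 0 with the libraries of the 2 groups alone, 8 in limma-voom, 4 without a filter, 20 without letter D and 0 to 16 with 1 library left out. Between the days 0 passed, against 2 in DESeq2, 23 in DESeq2 with the block, 33 in limma-voom and 174 without letter D. In the fit without the block, intervals for Id1, Id2 and Id3 spanned more than a log2 unit. The block narrowed that of Id2 over both days to -0.22 to 0.43. Control KD at 1 day held 2 libraries, and the cause of the wide intervals was not tested.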
